A study of Mus musculus with 6 samples.

Results

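The 10 genes described here encode subunits of Polycomb repressive complex 2 (PRC2): Ezh1, Ezh2, Eed, Suz12, Jarid2, Mtf2, Phf1, Phf19, Aebp2 and Epop. They were chosen by symbol, and all 10 were found among the 53927 gene symbols of the count tables, each as 1 row. RNA was sequenced from mouse embryonic stem cells (ESCs) in 2 media, as 3 libraries per medium. Both groups are labelled wild type and of the line E14, and both media were N2B27 with the MEK inhibitor PD0325901 at 1 µM. The 2i medium also held 3 µM CHIR99021, an inhibitor of the kinase GSK3 in its alpha and beta forms, and the BRD0705/PD03 medium held 8 µM BRD0705, an inhibitor selective for GSK3 alpha. The growth protocol speaks instead of B6D2F1 ESCs that were derived and expanded separately in each medium on feeder cells, so the labels do not settle which cells were sequenced, nor whether the libraries of a group came from separate cultures.

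PRC2 places methyl groups on lysine 27 of histone H3, a mark of silent developmental genes. Its core joins a catalytic subunit, Ezh2 or Ezh1, with Eed, which reads the methyl mark and stimulates the enzyme, with Suz12, the scaffold, and with a histone-binding protein, Rbbp4 or Rbbp7. Suz12 then takes up one of 2 kinds of accessory set. In PRC2.1 a Polycomb-like protein (Mtf2, Phf1 or Phf19), which binds CpG-rich DNA, is joined by Epop or by a protein of the Lcor genes, and in PRC2.2 Jarid2 and Aebp2 are bound. Mouse ESCs survive without PRC2 but misregulate developmental genes when they differentiate.

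Values are estimated counts relative to the scaled library total (CPM), and a log2 fold change sets BRD0705/PD03 over 2i and is given ± its standard error. Tests are edgeR's quasi-likelihood test, 2-sided, with Benjamini-Hochberg adjustment over 20422 genes and a threshold of 0.05. Libraries held 16968959 to 51180228 counts. Before any result on the members, the sex chromosomes set the groups apart: the Y-linked Ddx3y stood at 122 ± 7.06 (SD, n = 3) against 3.03 ± 0.26 CPM, and the median of 566 expressed X-linked genes was -0.80 against -0.00 for autosomal genes. E14 is a male line, so the low level of Ddx3y goes against the label of the libraries labelled 2i. Of 9 expressed Y-linked genes, 7 were higher and 1 lower in BRD0705/PD03 (median 0.72). Of 12 ESC markers, 5 were higher and 6 lower in BRD0705/PD03, where 30.1% of all genes tested were higher and 31.4% lower. No ESC marker was near 0: Pou5f1 stood at 687 ± 6.29 against 765 ± 54.9 CPM. The level of Sox2 was 289 ± 7.64 CPM in BRD0705/PD03 and 300.4 ± 14.8 CPM in 2i. Of 18 feeder fibroblast markers, 15 were higher and 3 not called (median 0.97), none was at 0, and their summed level was 1199 to 1814 CPM in BRD0705/PD03 and 657 to 700.5 CPM in 2i. Col1a1 stood at 142 ± 29.6 against 77.7 ± 1.96 CPM and Col3a1 at 297 ± 60.0 against 127 ± 0.402 CPM. Fewer cells of a type and less RNA per cell cannot be told apart in such bulk samples. Medium and sex chromosomes differed between the same groups of libraries, as did the derivation of the cells if the growth protocol holds. Medium, sex chromosomes and any difference in line or derivation therefore cannot be told apart for any gene below. The part of the fibroblast RNA in the changes below was not tested.

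In BRD0705/PD03 the RNA of 3 members stood well below that in 2i: Epop, Suz12 and Mtf2 fell by 0.99, 0.78 and 0.74 on the log2 scale. The Polycomb-like gene Phf19 rose by 1.18, from a low level. Ezh2, the main catalytic gene, did not pass the test (0.01 ± 0.05). Of the 10 members 2 were higher and 6 lower, where 30.1% of all genes tested were higher and 31.4% lower, and the 8 called are to be read against 61.4% of all genes called in either direction. All 10 members passed the filter on low counts. The median of the members was -0.13, against 0.00 over all genes tested, and the median size of their change, whatever its sign, was 0.21 against 0.40 over all genes tested. With a change of at least 1.5-fold as well, 4 members were called, where 34.6% of all genes were. The libraries of the groups did not overlap for 7 of 10 members, a share near the 66.0% of all genes tested.

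**Figure D1:**
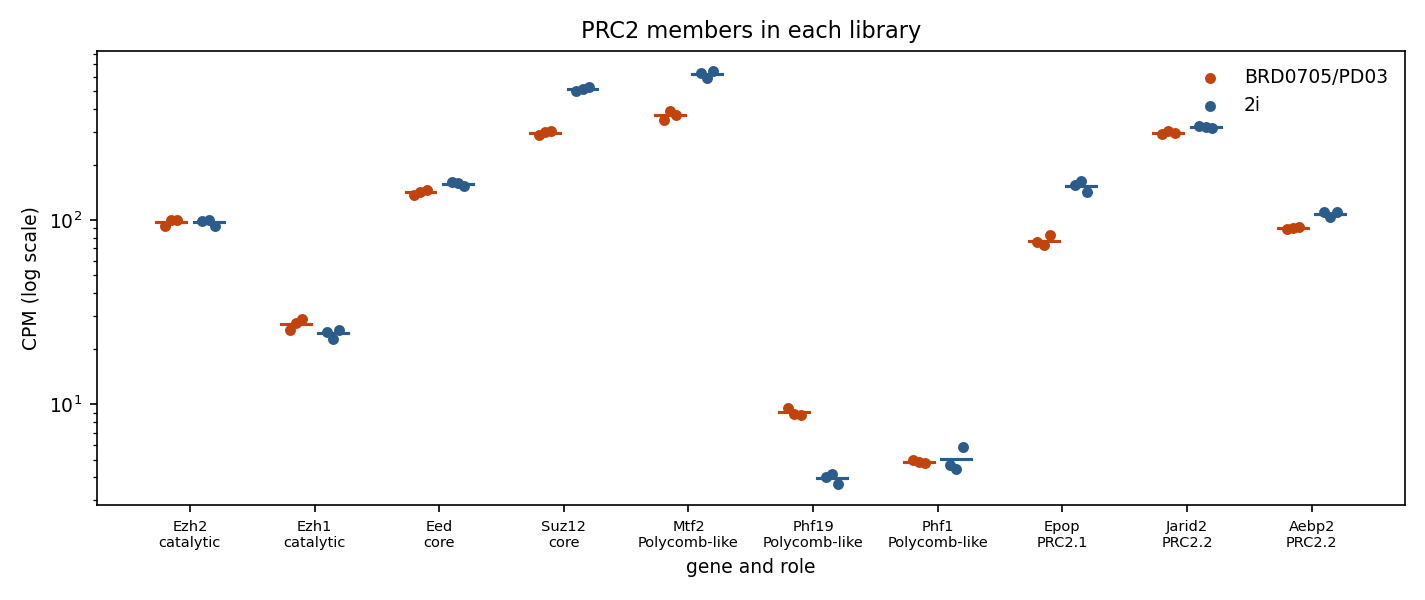
CPM of each PRC2 member (log axis) in the 3 BRD0705/PD03 and 3 2i libraries, with a point per library and a line at the group mean. Suz12, Mtf2 and Epop lie lower and Phf19 higher in every BRD0705/PD03 library, while the points of Ezh2, Ezh1 and Phf1 overlap between the groups.

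Ezh2 (chromosome 6, 47530139 to 47595341, minus strand, GRCm38) stood at 93.1, 100.4 and 99.96 CPM in BRD0705/PD03 and at 98.2, 100.2 and 92.8 CPM in 2i. The ranges overlap almost wholly, and the adjusted p was 0.854 (edgeR). Its sign turned without 2i replicate 3 (-0.01), without BRD0705/PD03 replicate 2 (-0.01) or replicate 3 (-0.00), and without genes of the sex chromosomes (-0.00). Ezh1 (chromosome 11, 101191115 to 101226463), the paralog with weaker methyltransferase activity that prevails in non-dividing cells, stood at 25.3, 27.7 and 28.8 CPM against 24.7, 22.6 and 25.4 CPM. The lowest BRD0705/PD03 library lies just below the highest 2i library. Ezh1 passed the test by a small margin (0.18 ± 0.07, adjusted p = 0.0270), and the call was lost with DESeq2 (0.0586) and in edgeR when BRD0705/PD03 replicate 2 (0.0800) or 3 (0.133) or 2i replicate 2 (0.103) was left out. Among 10250 named genes averaging 5 CPM or more, those whose centred log2 CPM over the 6 libraries lay nearest to Ezh2 were Paip2, Farsb and Rpl29, at Euclidean distances of 0.03, 0.04 and 0.04, all of them about level between the groups.

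Suz12, the scaffold on which both accessory sets assemble (chromosome 11, 79993106 to 80034123), stood at 290.3, 299 and 303 CPM in BRD0705/PD03 and at 499, 512 and 526 CPM in 2i. Every 2i library lay far above every BRD0705/PD03 library, and within each group the libraries differed little, with a coefficient of variation of 2.15% and 2.69%. The change was -0.78 ± 0.04 (adjusted p = 3.4e-12, edgeR), a level 1.72 times higher in 2i. It was -0.76 without BRD0705/PD03 replicate 1 and -0.79 without replicate 3. These fits do not test the part of fibroblast RNA, whose marker sum was higher in every BRD0705/PD03 library than in any 2i library. Eed (chromosome 7, 89954654 to 89980983) stood at 137, 142 and 146 CPM against 160.3, 159 and 153 CPM. The groups did not overlap, but the gap between them was small beside that of Suz12 (-0.15 ± 0.04, adjusted p = 0.00287, edgeR). Upper-quartile scaling reduced it to -0.09, still called (adjusted p = 0.0299). The fitted changes of the 3 core genes thus ran from 0.01 for Ezh2 to -0.15 for Eed and -0.78 for Suz12.

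Mtf2 (chromosome 5, 108065674 to 108109004), the Polycomb-like gene with the highest level of the 3, stood at 349, 390.5 and 373 CPM in BRD0705/PD03 and at 625, 589 and 641 CPM in 2i. The highest BRD0705/PD03 library stayed well under the lowest 2i library. The change was -0.74 ± 0.05 (adjusted p = 1.0e-10, edgeR), or 1.67 times more in 2i. Phf19 (chromosome 2, 34893757 to 34914026) went the other way, at 9.49, 8.86 and 8.68 CPM against 4.04, 4.15 and 3.67 CPM. Those values rest on 244 to 354 counts per BRD0705/PD03 library and 68 to 208 per 2i library, and the groups lie far apart (1.18 ± 0.11, adjusted p = 1.7e-08, edgeR). It was the only member changed by 2-fold or more, where 21.2% of all genes were, and Epop at 1.99-fold lay just under that limit. Phf1 (chromosome 17, 26933052 to 26937908) stood at 4.99, 4.83 and 4.81 CPM against 4.69, 4.47 and 5.88 CPM. Here 2i replicate 3 was above every other library and the other 2i libraries were below those of BRD0705/PD03, so the groups overlap (-0.03 ± 0.13, adjusted p = 0.845, edgeR), and the sign turned with upper-quartile scaling (0.03) and without 2i replicate 3 (0.10).

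Epop (chromosome 11, 97627389 to 97629702), which joins PRC2.1 and links it to the elongin BC proteins, had 75.7, 73.1 and 82.7 CPM in BRD0705/PD03 and 155, 164 and 142 CPM in 2i. It was the member with the lowest fold change (-0.99 ± 0.06, adjusted p = 2.9e-09, edgeR), and each 2i library held more than each BRD0705/PD03 library. Jarid2 (chromosome 13, 44729474 to 44921643), a member of the Jumonji family that lacks demethylase activity and binds nucleosomes in PRC2.2, stood at 292, 304 and 297 CPM against 323, 321 and 314 CPM. The groups do not overlap, yet they differ by little (-0.10 ± 0.04, adjusted p = 0.0307, edgeR). That call was lost with upper-quartile factors (-0.03, adjusted p = 0.346), median-ratio factors (0.0569) and no filter (0.231), and without BRD0705/PD03 replicate 1 (0.0686) or 3 (0.113) or 2i replicate 1 (0.104) or 2 (0.0764). Aebp2 (chromosome 6, 140622663 to 140678472), a zinc finger protein of PRC2.2, stood at 89.4, 90.4 and 92.0 CPM against 110.0, 103 and 111 CPM, lower in every BRD0705/PD03 library (-0.25 ± 0.04, adjusted p = 3.6e-05, edgeR).

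**Figure D2:**
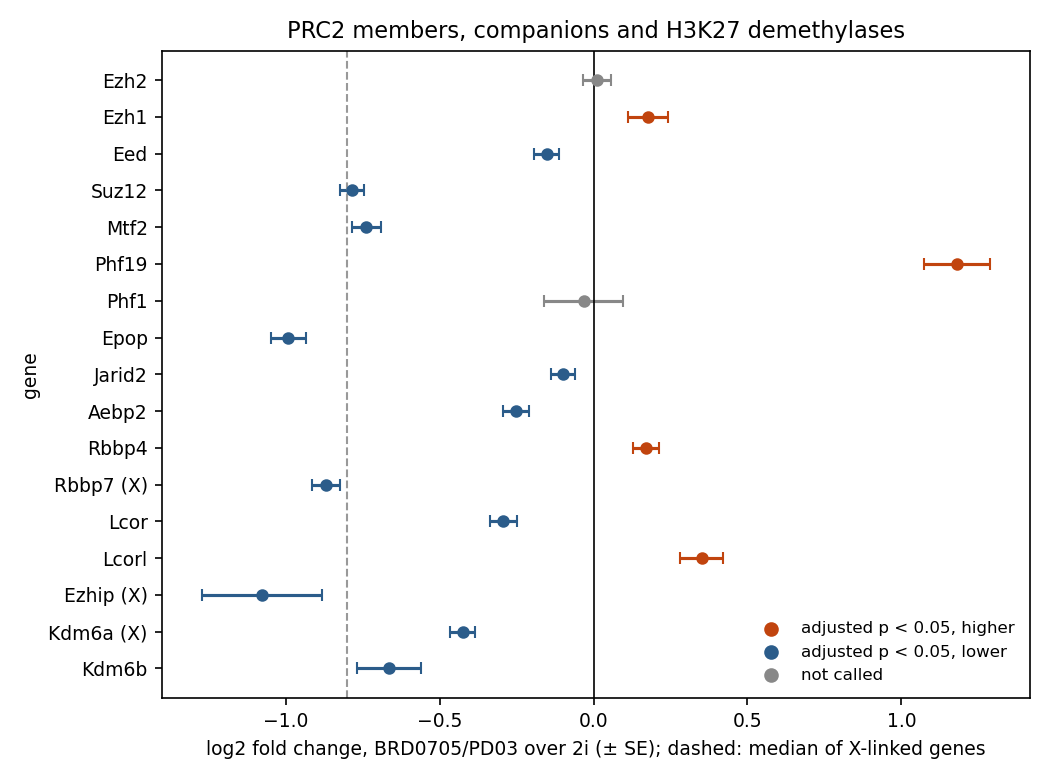
Log2 fold change of BRD0705/PD03 over 2i (horizontal axis, point) with its standard error (bar) for the PRC2 members, their companions and the demethylases of the mark except Uty, coloured by the edgeR call. Epop, Suz12 and Mtf2 are the lowest members and Phf19 the highest, and the dashed line marks the median of X-linked genes (-0.80).

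Several members share sequence with a neighbour, which bears on how reads were assigned, since no source used here gives the strand setting. Phf1 shares 720 bases with the transcripts of Cuta on the opposite strand, and Mtf2 shares 396 bases with Tmed5 in the same way. Eed shares 261 bases with E230029C05Rik, also on the opposite strand, which stood at 1.52 ± 0.332 against 1.03 ± 0.245 CPM, far below Eed. Cuta stood at 18.2 ± 0.842 against 25.5 ± 2.1 CPM and Tmed5 at 50.8 ± 1.97 against 62.0 ± 3.49 CPM. The low value of Phf1 is therefore uncertain, while Mtf2 stood far above its neighbour. Processed pseudogenes resembling Aebp2 (Gm14240) and Mtf2 (Gm49301) had means of 0 and 0 CPM in BRD0705/PD03 and 0 and 0.0397 CPM in 2i.

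For levels between genes, CPM were divided by the length of the longest coding transcript in kb. In 2i, Mtf2 had the highest level at 152 ± 6.57 CPM per kb, followed by Suz12 at 117 ± 3.15, Eed at 76.2 ± 1.8, Epop at 66.3 ± 4.67, Jarid2 at 53.2 ± 0.758 and Ezh2 at 34.8 ± 1.37. Below these came Aebp2 at 18.2 ± 0.682, Ezh1 at 5.77 ± 0.34, Phf1 at 1.98 ± 0.301 and Phf19 at 1.06 ± 0.0669 CPM per kb, and no neighbours in this order overlapped. In BRD0705/PD03 the order began with Mtf2 at 91.3 ± 5.13 CPM per kb, then Eed at 68.5 ± 2.03 and Suz12 at 68.0 ± 1.46, which overlap. Jarid2 at 49.7 ± 1.0, Ezh2 at 35.1 ± 1.46 and Epop at 33.4 ± 2.16 came next, the last pair overlapping, and Phf19 at 2.41 ± 0.114 lay above Phf1 at 1.93 ± 0.0399. With the union of exons as length, Suz12 lay above Eed in BRD0705/PD03 (60.1 against 37.0 CPM per kb), Epop above Jarid2 there (33.4 against 30.7) and above Eed in 2i (66.3 against 41.1), and Mtf2 and Suz12 overlapped in 2i. Summed over the 10 members the level was 359 to 379 CPM per kb in BRD0705/PD03 and 525 to 529 in 2i, and Mtf2, Suz12 and Epop carried 92.3% of the difference between the group means (94.8% with the union of exons). These 3 were the members with the largest falls, so a large share follows from that choice, and the difference is net of members that rose.

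Ratios within a library do not depend on scaling between libraries, and they show how the balance of subunit RNAs differed. Per kb, the ratio of Eed to Suz12 was 1.00, 1.00 and 1.02 in BRD0705/PD03 and 0.680, 0.657 and 0.616 in 2i. That of Ezh2 to Suz12 was 0.504, 0.527 and 0.518 against 0.309, 0.307 and 0.277. Both ratios were higher in every BRD0705/PD03 library. Their size depends on the length used: with the union of exons the means were 0.615 against 0.397 for Eed to Suz12 and 0.244 against 0.140 for Ezh2 to Suz12. The RNA of PRC2.1 genes (Mtf2, Phf1, Phf19 and Epop) over that of PRC2.2 genes (Jarid2 and Aebp2) was 1.93, 2.00 and 2.03 against 3.10, 3.08 and 3.13 (mean 2.55 against 4.04 with the union of exons). Mtf2 and Epop made up most of the PRC2.1 sum, while Phf1 was not called and Phf19 was higher. Within the Polycomb-like genes Mtf2 made up 95.4% ± 0.386 (SD, n = 3) against 98.0% ± 0.0928, and Phf19 2.53% ± 0.242 against 0.682% ± 0.0706 of their summed level, so Mtf2 prevailed in both media. Ezh2 made up 84.4% ± 0.416 and 85.8% ± 1.16 of Ezh1 and Ezh2 together, with overlapping groups. These shares describe RNA per length and not protein.

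**Figure D3:**
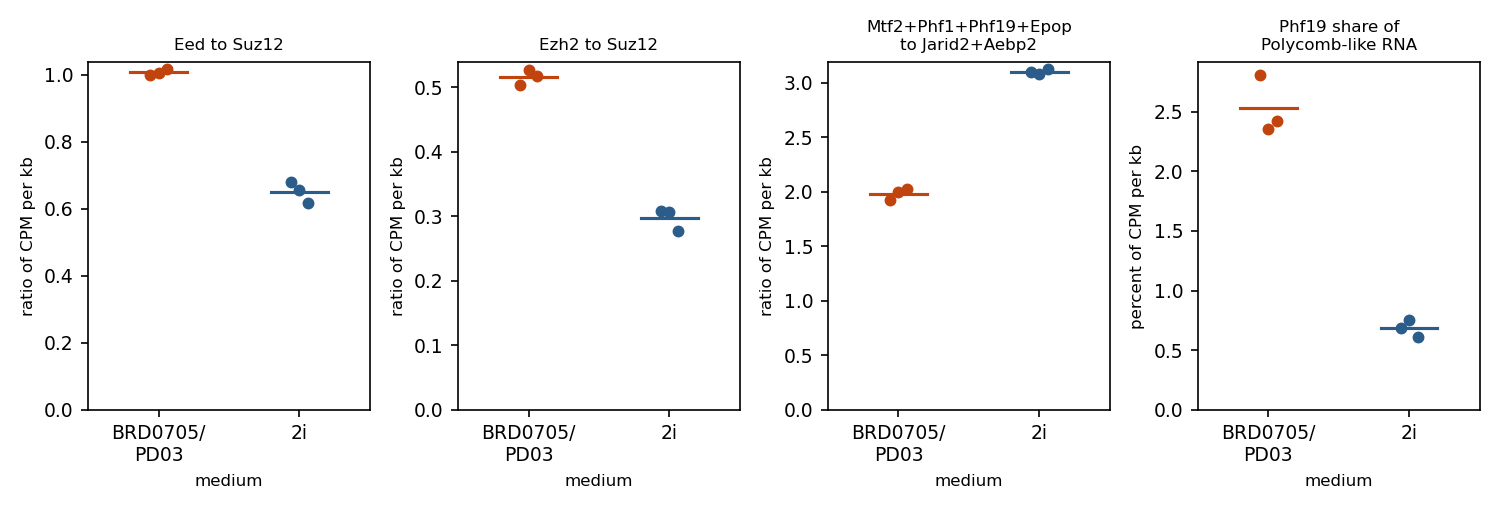
Ratios and shares of subunit RNA (CPM per kb of the longest coding transcript, vertical axes starting at 0) by medium, with a point per library and a line at the mean. Eed and Ezh2 are higher relative to Suz12 in BRD0705/PD03. The sum of Mtf2, Phf1, Phf19 and Epop, mostly Mtf2 and Epop, is lower relative to that of Jarid2 and Aebp2. The Phf19 share, though larger, stays under 3 percent.

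Promoter sequences of RefSeq (GRCm38.p6, from 250 bases before to 50 after a start) were matched by symbol for 9 of 10 members, Epop being the one not matched, with 13 windows in all. Their CpG content varied, from 2 CpG dinucleotides in the second Mtf2 window and 4 in 2 of the 3 Aebp2 windows, through 17 in the Eed window, to 41 in that of Suz12, where the median of all 32851 promoters was 7 and the upper quartile 20. The 4 windows printed held 41 for Suz12, 38 for Phf19, 31 for Ezh2 and 30 for Mtf2, and are shown because Suz12 and Mtf2 fell, Phf19 rose and Ezh2 did not pass the test. Capitals mark matches, on either strand, to the E2F words TTTCCCGC, TTTCGCGC, TTTGCCGC and TTTGGCGC (E2F factors drive genes of the cell cycle) or to the word CCAAT, and each is written 5′ to 3′ on the strand of its gene.
Suz12, chr11:79992856-79993155, plus strand: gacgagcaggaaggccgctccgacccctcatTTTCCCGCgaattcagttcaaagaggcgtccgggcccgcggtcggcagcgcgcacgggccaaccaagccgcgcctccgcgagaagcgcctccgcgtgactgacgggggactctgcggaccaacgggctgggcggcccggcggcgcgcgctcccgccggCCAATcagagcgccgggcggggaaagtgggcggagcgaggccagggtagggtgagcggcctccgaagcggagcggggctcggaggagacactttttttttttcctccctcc
Mtf2, chr5:108065424-108065723, plus strand: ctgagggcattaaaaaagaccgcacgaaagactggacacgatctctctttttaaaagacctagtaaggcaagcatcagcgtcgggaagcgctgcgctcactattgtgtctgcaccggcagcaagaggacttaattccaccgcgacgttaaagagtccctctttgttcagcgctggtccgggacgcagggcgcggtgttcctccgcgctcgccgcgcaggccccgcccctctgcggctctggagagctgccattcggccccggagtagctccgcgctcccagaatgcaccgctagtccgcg
Phf19, chr2:34913927-34914226, minus strand: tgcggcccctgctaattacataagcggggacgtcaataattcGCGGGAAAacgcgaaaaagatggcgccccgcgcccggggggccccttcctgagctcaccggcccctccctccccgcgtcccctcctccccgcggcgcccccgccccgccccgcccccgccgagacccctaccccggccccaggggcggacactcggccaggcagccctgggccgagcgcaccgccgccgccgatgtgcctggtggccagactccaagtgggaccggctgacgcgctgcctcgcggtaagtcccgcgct
Ezh2, chr6:47594981-47595280, minus strand: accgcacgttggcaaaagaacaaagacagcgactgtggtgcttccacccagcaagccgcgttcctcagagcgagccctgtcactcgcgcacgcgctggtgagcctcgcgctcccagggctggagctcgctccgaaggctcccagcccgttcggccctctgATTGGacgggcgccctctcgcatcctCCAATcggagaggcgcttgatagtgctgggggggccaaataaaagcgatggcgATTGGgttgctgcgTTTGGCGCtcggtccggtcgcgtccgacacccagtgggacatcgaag
An E2F word began at base -219 of Suz12, at -208 of Phf19 (reverse strand) and at 4 of Ezh2, counted from the start site, and in no window of the other 6 matched members. Among all promoters 2.26% held such a word, and 5.15% of those with at least 20 CpG. The 3 genes that hold one were lower, higher and not called. Ezh2 held 3 CCAAT words and Suz12 held 1, a word found in 37.4% of all promoters, and the Mtf2 window shown held none of either kind. Among the windows not printed, the second of Mtf2 held 3 CCAAT words, and that of Eed, both of Jarid2 and 1 of Aebp2 held 1 each. The word ATCAAAG, recognised by the TCF and LEF factors that act with beta-catenin, was in 0 of the 13 windows and in 3.73% of all promoters. A match is a run of letters only, and its absence says nothing of a factor.

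Of the 5 companions of the complex, 2 were higher and 3 lower, where 30.1% of all genes tested were higher and 31.4% lower. Rbbp4, the autosomal histone-binding subunit, stood at 425, 432 and 433 CPM in BRD0705/PD03 against 385, 400.1 and 361 CPM in 2i (0.17 ± 0.04, adjusted p = 0.00191, edgeR). Its X-linked paralog Rbbp7 went down, at 217, 237 and 241 CPM against 430.2, 431 and 409 CPM (-0.87 ± 0.04, adjusted p = 4.5e-12, edgeR), close to the median of X-linked genes (-0.80). Ezhip, an X-linked inhibitor of the enzyme that is listed in the files as AU022751, had little RNA in either group, with 1.28 ± 0.273 CPM in BRD0705/PD03 and 2.64 ± 0.302 CPM in 2i (-1.08 ± 0.20). Lcor, whose locus also gives rise to a PRC2.1 subunit, changed by -0.29 ± 0.04, and its paralog Lcorl by 0.35 ± 0.07, with no overlap between the groups for either.

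The demethylases of the same mark were lower except for the Y-linked one. Kdm6a, on the X chromosome, stood at 125, 133 and 125 CPM against 171, 169.6 and 173 CPM (-0.43 ± 0.04, adjusted p = 2.7e-08, edgeR). Kdm6b, on chromosome 11, stood at 8.44, 6.03 and 7.36 CPM against 11.8, 11.6 and 11.5 CPM (-0.66 ± 0.11, adjusted p = 2.1e-05, edgeR). Uty, the Y-linked homolog of Kdm6a with little demethylase activity, stood at 83.3, 86.8 and 82.2 CPM against 2.73, 2.55 and 3.59 CPM, moving with Ddx3y. The medium, the sex chromosomes and any difference in line or derivation of the cells cannot be told apart for these genes, nor for the PRC2 members.

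Genes that act with or against PRC2 moved both ways. Of 24 PRC1 subunit genes, whose complex reads the PRC2 mark or ubiquitinates histone H2A, 6 were higher and 11 lower (median -0.23). These counts, and those of the next list, are to be read beside 30.1% of all genes tested higher and 31.4% lower. Kdm2b, which brings a form of PRC1 to CpG islands, stood at 290 ± 8.75 against 157 ± 7.54 CPM (0.88 ± 0.04) and Auts2, a subunit of a PRC1 form that can activate genes, at 29.2 ± 1.78 against 11.2 ± 0.642 CPM. Scmh1, a Polycomb protein with MBT repeats, changed by -1.61 ± 0.06 and the X-linked Bcorl1 by -2.60 ± 0.13. Of 12 enzymes and cofactors of opposing marks 6 were higher (5 with DESeq2, 8 with upper-quartile factors) and 2 lower (median 0.07). Among them Asxl1, a partner of the H2A deubiquitinase Bap1, changed by 0.55 ± 0.04, its paralog Asxl2 by 0.25 ± 0.04, the H3K36 methyltransferase gene Nsd1 by 0.36 ± 0.04 and Setd2, which trimethylates H3K36, by -0.26 ± 0.04.

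Among 62 developmental genes known as Polycomb targets, 37 passed the filter on low counts. Of these, 9 were higher and 17 lower in BRD0705/PD03 (median -0.38), where 30.1% of all genes tested were higher and 31.4% lower. The other 25 targets did not pass the filter. A gene could pass through the group where it was high, so these counts do not stand for the whole list. Where genes averaging under 1 CPM were left out, 3 were higher and 10 lower, beside 5549 of all genes higher and 5492 lower in that fit. Pax6, a factor of eye and neural development, stood at 13.1, 12.9 and 13.3 CPM against 0.475, 0.299 and 0.316 CPM (5.26 ± 0.16), and Bmp4, a growth factor, at 4.34, 4.47 and 4.56 CPM against 0.831, 1.34 and 0.947 CPM (2.01 ± 0.18). Hoxc13, a gene of the posterior Hox group, went down (1.32, 1.34 and 1.35 CPM against 6.47, 6.34 and 6.43 CPM), as did Tbx3, a factor also active in naive ESCs (31.2, 33.6 and 35.3 CPM against 165, 176 and 177 CPM). These 4 were named as the called targets with the smallest p, so the wide gap between the groups follows from that choice. Binding of PRC2 and its histone mark were not measured in these libraries.

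**Figure D4:**
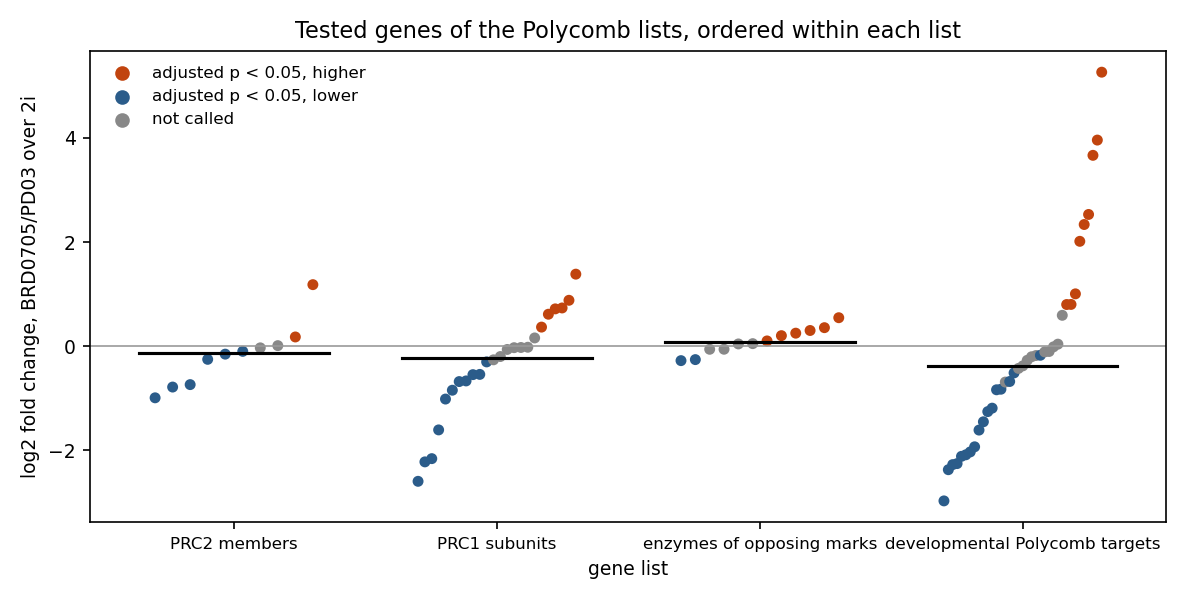
Log2 fold change of BRD0705/PD03 over 2i (vertical axis) for each tested gene of 4 Polycomb lists, ordered by value within a list, coloured by the edgeR call, with a black line at the list median. The members span -0.99 to 1.18, and the highest point among the developmental targets is Pax6 at 5.26, with 8 to 15 counts per library in 2i.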

How the data were processed

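Each library came as a table of whole numbers for 53927 gene symbols. The submitters' processing notes name Salmon and mm10, so the deposited values were read as estimated counts rounded by the authors, without scaling. No source used here gives the annotation, strand setting or summing to genes. Groups came from titles. No libraries of a group matched within sampling noise (chi-square per degree of freedom of 2.77 to 9.84, over genes with 20 counts or more in a pair), and p-values measure the spread between libraries, which may be technical.

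The tests ran in edgeR 4.0.16 (R 4.3.3), with filterByExpr, TMM scaling, a robust quasi-likelihood fit and group as the only term, adjusted over all 20422 genes. The standard error is the log2 fold change over the square root of F, and the common biological coefficient of variation was 0.0591. The steps were tested on simulated data. Positions and lengths are from GENCODE M21 on GRCm38, and shared transcript stretches of at least 200 bases were sought with blastn at 90% identity.

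The members and lists were chosen with earlier results of these data known. The text names every member, companion and demethylase, up to 4 called genes with the smallest p and an average of 1 CPM or more from the PRC1, opposing-mark and target lists, 5 check genes and the 3 genes most like Ezh2. Cuta, Tmed5, E230029C05Rik and 2 pseudogenes were named for their shared sequence. Alternatives were DESeq2 1.42.0, 2 other scalings, 2 other filters, omission of sex-chromosome genes, the replicate number as a block, and leaving out each library.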

Additional observations from a re-analysis of the deposited data

How the results depend on the processing

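Suz12 (-0.80 to -0.72), Mtf2 (-0.78 to -0.67), Epop (-1.04 to -0.92), Phf19 (1.14 to 1.25), Aebp2 (-0.27 to -0.19) and Eed (-0.17 to -0.09) kept direction and call under the 13 alternatives. Ezh1 lost its call with DESeq2 (0.18) and ranged from 0.14 to 0.23 with a library left out, so that 1 or 2 members were higher. Jarid2 lost its call with median-ratio (-0.091) or upper-quartile factors (-0.034) and no filter (-0.077), and ranged from -0.12 to -0.079 with a library left out. Ezh2 and Phf1, not called in any setting, ranged over -0.015 to 0.052 and -0.11 to 0.10 with a library left out, and turned sign without X and Y genes (Ezh2, -0.000303) and with upper-quartile factors (Phf1, 0.033). Fewer genes tested changed other counts. Without X and Y genes, 1 companion and 1 demethylase were lower and, as the others were not in the fit, 0 demethylases and 0 Y-linked genes higher. Among genes averaging 1 CPM or more, 3 developmental targets were higher and 10 lower, where 5549 of all genes were higher and 5492 lower. DESeq2 called 1 member higher. With DESeq2, 8 developmental targets were higher and 12 lower, against 9 and 17 with the main settings. Over all genes DESeq2 called 5483 higher and 5670 lower, against 6138 and 6406 with the main settings. For fibroblast markers the count lower was 0 to 1 with a library left out and 1 (Col6a3) with the block. For all genes, upper-quartile factors gave 6967 higher and 5689 lower, against 6138 and 6406, and moved the median by 0.07. Causes of lost calls were not tested.

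Replicate numbers showed no clear pairing of the samples: same-numbered libraries had correlated deviations of -0.08, 0.11 and -0.06. Not every library correlated best with its own number. With 3 libraries per group, each centred on the group mean, this check cannot exclude a pairing. With the replicate number as a block, 6059 genes were higher and 6376 lower, 2 members higher and 6 lower, and Suz12 stood at -0.78, Mtf2 at -0.74, Epop at -0.99, Phf19 at 1.18, Aebp2 at -0.25, Eed at -0.15, Ezh1 at 0.18, Jarid2 at -0.10, Ezh2 at 0.01 and Phf1 at -0.04. Depth limits Phf1 and Phf19 most, at 68 to 354 counts per library.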
